A study of Rattus norvegicus with 3 samples.

Results

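Integrins and laminins are the chains of a cell surface receptor family and of one of its main ligands, and their transcripts were compared between rat induced pluripotent stem (iPS) cells and adult rat cells. The genes were taken from the array's gene names: every probe, control spots aside, whose name begins with Itga or Itgb, or with Lama, Lamb or Lamc and a digit. This gave 35 gene names with 55 probes, of 35536 names and 41012 probes on the array. Of these, 22 are integrin chains and 9 are laminin chains. The other 4 names (Itgb1bp1, Itgb1bp2, Itgb3bp and Itgb4bp) begin with Itgb but belong to proteins named for binding a beta chain, and they were counted apart.

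The iPS cells were 3 untreated samples of the line M13, grown on a feeder layer of irradiated mouse embryonic fibroblasts. The adult RNA was 1 control, mix1, which combined primary fibroblasts of the rat ear with rat bone marrow cells, each grown in culture. Each of 3 two-colour whole-genome rat arrays on 1 slide carried an iPS sample in Cy3 and mix1 in Cy5, with no dye swap, so the dye cannot be told apart from the group. The labels give no strain, age or passage, do not say that the iPS samples came from separate cultures, and name 1 iPS line. The p-values thus rest on the spread between 3 samples, a spread that may be only technical, and the spread of mix1 is not in them. In RNA of mixed cells, fewer cells of a type and less RNA per cell cannot be told apart.

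An integrin is a pair of 1 alpha and 1 beta chain that spans the membrane, holds a matrix protein or a neighbouring cell outside, and is tied to actin through adaptors inside. The alpha chain largely sets the ligand: alpha3, alpha6 and alpha7 bind laminin, alpha1, alpha2, alpha10 and alpha11 bind collagen, and another group reads the RGD tripeptide of fibronectin and vitronectin. Laminins are trimers of an alpha, a beta and a gamma chain that build the basement membrane. Pluripotent stem cells are commonly grown on laminins, and alpha6 with beta1 is well known as a laminin receptor on them.

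Some of the probes can be read directly. The arrays carry 60-base probes in the sense of the transcript, and 4 of the 55 hold letters that can encode the conserved GFFK-type motif of alpha chains, which lies just inside the membrane where they meet their beta partner. It was searched as GGNTTNTTNAAN, the codons of GFFK with N wherever they vary, and the match is in capitals in the first 4 probes. It occurs in 7.27% of the 55 probes against 0.168% of all 41012. On the reverse strand 0 of the 55 and 69 of all probes hold it, and 69 of all hold it forward. The last 5 probes carry no capitals and are shown because the alpha6, beta1 and laminin alpha1 results turn on them; the last alpha6 probe bears another name on the array, as described later.
Itgam: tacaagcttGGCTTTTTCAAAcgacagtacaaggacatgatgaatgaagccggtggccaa
Itga3: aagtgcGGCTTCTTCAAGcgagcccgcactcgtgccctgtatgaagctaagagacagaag
Itga1: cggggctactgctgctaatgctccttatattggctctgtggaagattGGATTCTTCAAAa
Itgal: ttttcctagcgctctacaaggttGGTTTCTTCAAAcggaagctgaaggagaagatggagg
Itga6, bright probe: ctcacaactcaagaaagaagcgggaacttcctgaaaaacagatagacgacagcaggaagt
Itga6, dim probe: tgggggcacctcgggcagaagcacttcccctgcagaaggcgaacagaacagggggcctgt
Itga6-like, LOC501308: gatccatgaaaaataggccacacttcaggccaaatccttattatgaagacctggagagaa
Itgb1: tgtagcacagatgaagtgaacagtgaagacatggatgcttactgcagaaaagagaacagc
Lama1: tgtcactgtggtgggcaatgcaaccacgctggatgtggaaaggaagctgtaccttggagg

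On build rn3, per the file headers, the probes lie as follows. The Itgam probe spans chr1:187534913-187535446 and the Itgal probe chr1:186744460-186747869, both on the plus strand. The Itga3 probe spans chr10:83744454-83744847 and the Itga1 probe chr2:47036126-47040271, both on the minus strand. These spans exceed 60 bases. The bright Itga6 probe lies at chr3:54160172-54160231 and the dim one at chr3:54132329-54132388, both on the plus strand. The Itga6-like probe is placed on unassigned sequence, chrUn:37376218-37377453. The Itgb1 probe lies at chr19:58616197-58616256 on the minus strand and the Lama1 probe at chr9:107182956-107183015 on the plus strand.

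All values below are log2 ratios of iPS M13 over mix1 unless called signals, after background correction and loess normalization within each array. A gene counted as measured if all 3 arrays showed a probe of it well above background in 1 of the RNAs, the same one each time. It was called at a 2-fold or larger difference whose p, from limma and adjusted by Benjamini-Hochberg over all genes, was below 0.05. Of 20339 genes tested, 19541 passed the adjusted p alone, so the fold decided nearly all calls. Between pairs of arrays the ratios of all genes had correlations of 0.997 to 0.998, as a description across genes. The labels were checked on 5 genes: Sox2 (2.62 ± 0.07, SD, n = 3) and Cdh1 (3.07 ± 0.07) were higher in iPS M13, Pou5f1 was at least 2.48-fold higher, Col1a1 (-7.09 ± 0.19) was lower, and Ptprc was at least 1.83-fold lower.

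Integrin chains were lower in iPS M13 or not called. Of 22 integrin genes 14 were measured, and 9 of these were lower, 0 higher and 5 not called, with a median of -2.61. Of 9 laminin genes 8 were measured, and 7 were lower and 1, Lama1, higher, with a median of -1.48. Across all genes tested 25.5% were called lower and 18.7% higher, with a median of -0.03. The 3 measured binding proteins were not called. A gene bright in only 1 RNA passes the filter through that RNA, so these counts describe the measured genes and not all chains. The calls near the 2-fold line depended on how the arrays were scaled, as given below for the chains named.

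**Figure D1:**
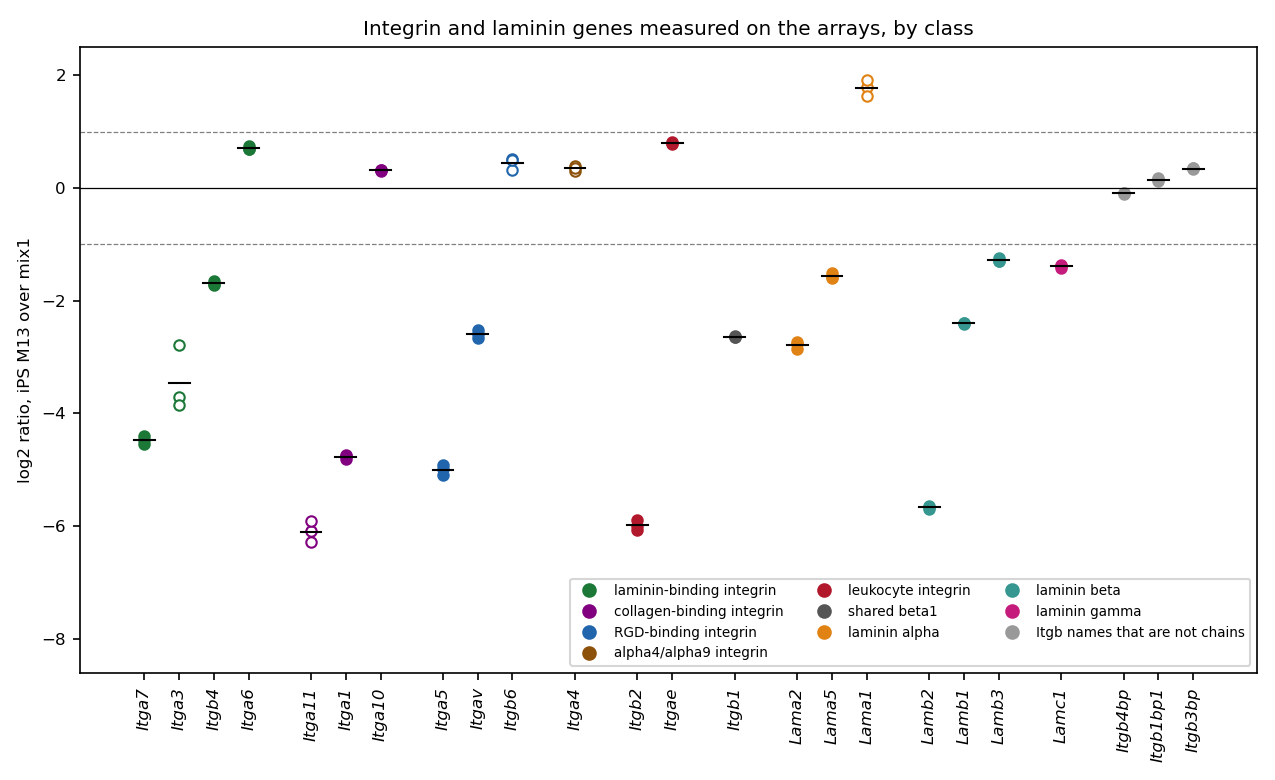
Log2 ratio of iPS M13 over mix1 (vertical axis) for the measured genes described here, grouped by ligand class; each point is 1 array, short bars are means of 3 arrays, and open points mark genes for which 1 RNA was not well above background on all 3 arrays. Dashed lines mark 2-fold; Lama1 is above the upper line at 1.78, and the integrin and laminin genes called lower lie below the lower one.

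The laminin-binding class had 3 of its 4 genes lower and 1 not called. Itga6, whose chain pairs with beta1 or beta4, was above background in both RNAs on every array. Its signals were 700.4, 709 and 762 in iPS M13 and 278, 291 and 300.3 in mix1 on replicates 1, 2 and 3. These uncorrected iPS signals were the higher on each array, but the iPS channel was also the brighter across all probes. Its median signals were 272, 291 and 289 on replicates 1, 2 and 3, against 228, 254 and 235 for mix1. After loess the ratios were 0.75, 0.68 and 0.70 (0.71 ± 0.03, adjusted p = 1.96e-05 by limma), short of 2-fold. Median centring gave 1.22, no within-array normalization 1.17 and the scanner software's processed signals 1.26, so Itga6 was called higher in those settings. The dim Itga6 probe was above background on 2 of 3 arrays in each RNA and was not kept (-0.42 ± 0.01).

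Itga7, the laminin receptor of muscle, gave -4.47, -4.41 and -4.55 (-4.47 ± 0.07, adjusted p = 1.23e-06 by limma). Its signals ran from 487 to 517 in iPS M13 and from 6087 to 6812 in mix1, far apart on all arrays. For its second probe iPS M13 was above background on 0 arrays, which gave a level at least 4.76-fold lower. Itgb4, the beta chain that joins alpha6 in hemidesmosomes, the anchors of epithelial cells, gave -1.70, -1.66 and -1.73 (-1.69 ± 0.03, adjusted p = 2.68e-06 by limma). It was lower on every array, but lost its call under median centring (-0.94) and fell just short of 2-fold without normalization.

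Itga3, which also binds laminin with beta1, had the largest SD of the measured chains. Its signals in iPS M13 were 221, 102 and 115 on replicates 1, 2 and 3, above background only on replicate 1, against 999, 1105 and 993 in mix1. The ratios were -2.80, -3.72 and -3.85 (-3.46 ± 0.58, adjusted p = 0.000409 by limma). Replicate 1 stood apart from the other two; without it the ratio was -3.79. The motif-bearing Itga3 probe printed above was not above background in iPS M13 on any array and not kept.

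The collagen-binding class held some of the largest differences. Itga11, a collagen receptor of mesenchymal cells, gave -6.09, -5.91 and -6.29 (-6.10 ± 0.19, adjusted p = 3.90e-06 by limma). Its signals were 165 to 203 in iPS M13, above background on 2 of 3 arrays, and 6869 to 7689 in mix1. Itga1, measured by a probe that ends in the GFFK-type stretch, gave -4.76, -4.74 and -4.80 (-4.77 ± 0.03, adjusted p = 6.51e-07 by limma). It was still well above background in iPS M13, at signals of 2048 to 2177 against 31764 to 34024 in mix1. Itga10, a collagen receptor known from cartilage, stood on the other side of 0 with 0.32, 0.30 and 0.31 (0.31 ± 0.01) and was not called. Itga2 was not measured: mix1 was above background on 1 array and iPS M13 on 0.

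Of the 6 RGD-binding genes 3 were measured, 2 of them lower. Itga5, whose chain makes the classical fibronectin receptor with beta1, gave -4.99, -4.92 and -5.10 (-5.00 ± 0.09, adjusted p = 1.41e-06 by limma). Signals were 267 to 282 in iPS M13 and 4802 to 5250 in mix1. For its second kept probe iPS M13 was above background on 0 arrays, which gave a level at least 5.45-fold lower. Itgav, the shared alpha chain of the vitronectin receptors, gave -2.59, -2.52 and -2.66 (-2.59 ± 0.07, adjusted p = 3.11e-06 by limma) and -1.93 ± 0.10 from its second probe. Itgb6, an epithelial partner of alphav, gave 0.51, 0.32 and 0.49 (0.44 ± 0.10), was above background on 2 of 3 arrays in mix1, and was not called, though the processed signals put it at 1.03. Itga8, Itgb3 and Itgb8 were not measured: iPS M13 was above background on 0 arrays for each, and mix1 on 2, 1 and 0.

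Itgb1, the beta chain shared by most of these receptors, was lower in iPS M13. The array prints its probe 10 times, so each array value rests on 10 spots. The ratios were -2.64, -2.63 and -2.64 (-2.64 ± 0.0046, adjusted p = 6.90e-07 by limma). Mean signals were 3745, 4164 and 3864 in iPS M13 and 13345, 16024 and 13118 in mix1. The mix1 channel was the brighter on all 10 spots of each array. On single spots the uncorrected signal of mix1 exceeded that of iPS M13 by 3.35 to 3.93 times. The Itgb1 probe was also well above background in each iPS M13 sample.

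Among the integrins of blood cells, Itgb2, the beta chain of the leukocyte integrins, gave -6.00, -5.89 and -6.08 (-5.99 ± 0.09, adjusted p = 1.14e-06 by limma). Signals were 304 to 332 in iPS M13 and 10755 to 11941 in mix1. The alpha partners of beta2 that had a probe under the name rule were dim. Itgam was above background on 2 arrays in mix1 and 0 in iPS M13, and Itgal on 0 in either. Itgad was above it on 2 in iPS M13 and 0 in mix1. Itgb7, the beta chain of gut-homing lymphocytes, was above background on 2 arrays in iPS M13 and 0 in mix1. These 4 genes were not measured, and Itgax, also of the leukocyte class, had no probe under the name rule.

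Itgae, known as the alpha chain that pairs with beta7 and binds E-cadherin, gave 0.78, 0.81 and 0.80 (0.80 ± 0.01, adjusted p = 6.54e-06 by limma) and was not called. Its signals were 10177 to 11748 in iPS M13 and 3355 to 3678 in mix1. Median centring gave 1.65 and the processed signals 1.21, both past 2-fold. A second Itgae probe was not above background in either RNA on any array. The longest run of bases the 2 probes share is 13, and neither has a position on rn3, so the transcript behind the bright probe rests on its name alone. Itga4, the alpha chain of the VCAM1 receptor, gave 0.39, 0.30 and 0.36 (0.35 ± 0.04), was above background on 2 of 3 arrays in mix1, and was not called.

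**Figure D2:**
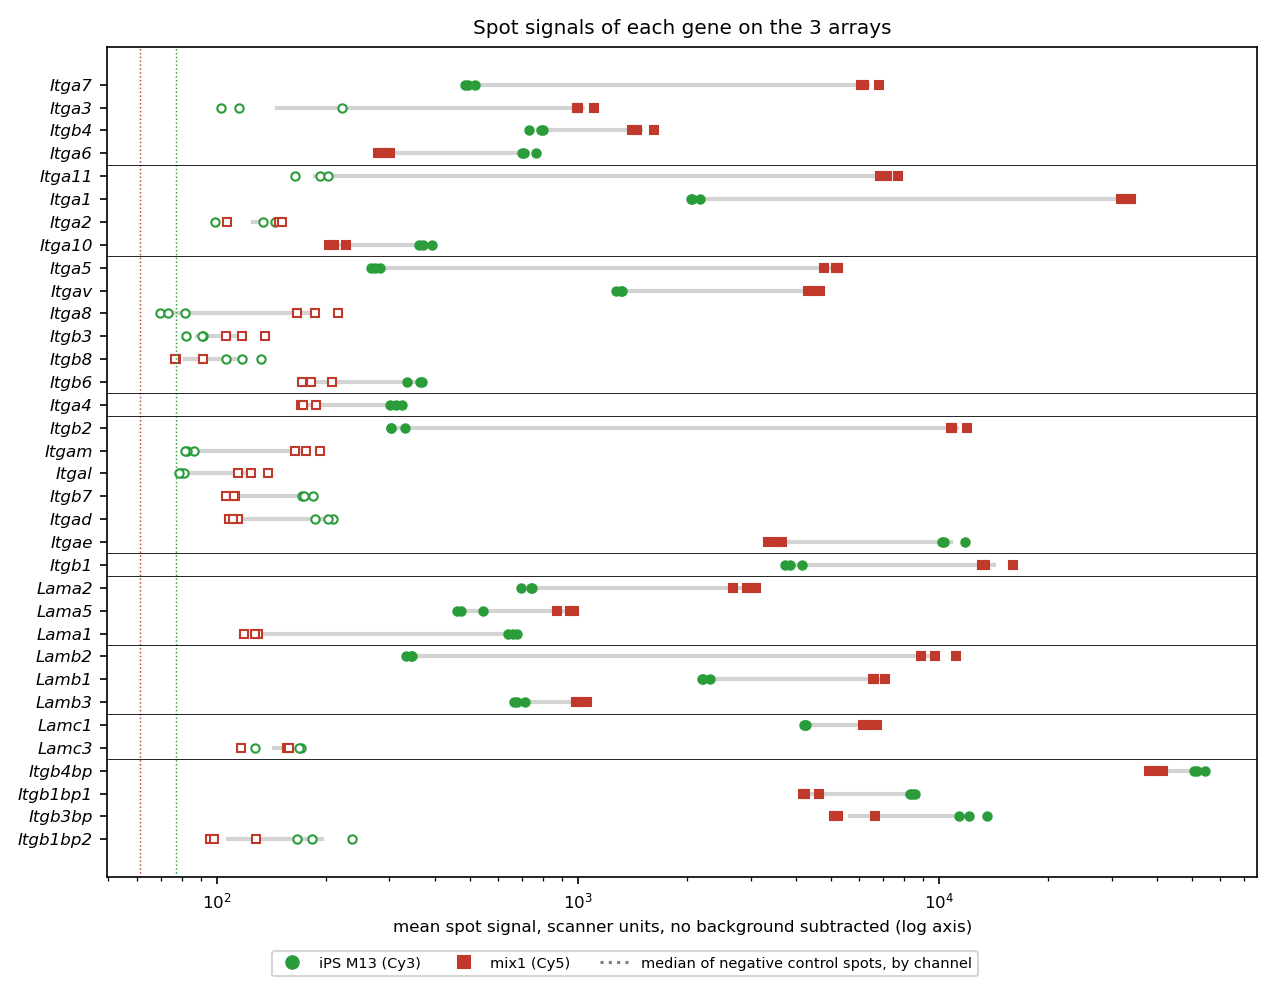
Mean spot signals in scanner units (horizontal log axis) for the genes described here, by class from top to bottom, with iPS M13 as circles and mix1 as squares on 3 arrays; filled symbols mark an RNA well above background on all 3, and dotted lines mark the median negative control signal of each channel. Rows can be read across but not against each other; Itgb2, Lamb2 and Itga11 show wide gaps with mix1 on the right, and Lama1 a gap with iPS M13 on the right.

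Laminin alpha chains, which carry most of the sites that integrins bind, went both ways. Lama1, the chain of the laminin of early embryos, was bright only in iPS M13: its signals were 639, 677 and 661 there and 130, 127 and 118 in mix1, which was not above background on any array. The ratios of 1.80, 1.63 and 1.91 (1.78 ± 0.14, adjusted p = 4.68e-05 by limma) were therefore given as a level at least 3.43-fold higher. The bound equalled the measured ratio, since on each array the mix1 signal lay above the dimmest one counted as well above background. The processed signals gave 3.47 on the log2 scale.

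Lama2, the chain of muscle and nerve basement membranes, was lower, at -2.77, -2.74 and -2.87 (-2.79 ± 0.06, adjusted p = 2.49e-06 by limma). Its other kept probes gave -1.87 ± 0.10 and -1.27 ± 0.09, with iPS M13 above background on 1 and 2 arrays. Lama5, the chain of most adult basement membranes and of laminin-511, a substrate for pluripotent cells, gave -1.58, -1.52 and -1.60 (-1.56 ± 0.04, adjusted p = 4.09e-06 by limma). Its signals were 462 to 546 in iPS M13 and 873 to 974 in mix1. A second probe gave -1.29 ± 0.02. Under median centring Lama5 fell short of 2-fold (-0.94).

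All 3 beta chains measured were lower. Lamb2 gave -5.66, -5.70 and -5.64 (-5.67 ± 0.03, adjusted p = 6.51e-07 by limma), with signals of 333 to 346 in iPS M13 and 8895 to 11147 in mix1. Its probe is placed on unlocalised sequence in rn3. Lamb1, the beta chain of laminins made early in development, gave -2.39, -2.40 and -2.41 (-2.40 ± 0.01, adjusted p = 7.97e-07 by limma). Lamb3, the beta chain of the epidermal laminin, gave -1.30, -1.25 and -1.29 (-1.28 ± 0.03, adjusted p = 4.08e-06 by limma). Other Lamb3 probes gave -1.33 ± 0.01 and -0.70 ± 0.01, the latter short of 2-fold.

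Among the gamma chains, Lamc1, the one found in most laminins, was lower. It gave -1.38, -1.38 and -1.42 (-1.39 ± 0.02, adjusted p = 2.80e-06 by limma), and -1.48 ± 0.03 from a second probe. Its signals were high in both RNAs, 4231 to 4276 in iPS M13 and 6137 to 6708 in mix1. Lamc3 was above background on 1 array in each RNA and was not measured.

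Lamb3 and Lamc1 also lost their calls under median centring, at -0.59 and -0.54, and without normalization both and Lama5 were again not called. Median centring raised the median of all genes by 0.60. Relative to that raised median, Itgb4, Lama5, Lamb3 and Lamc1 stood at -1.52, -1.52, -1.17 and -1.12. Of all calls, 42.4% were higher in iPS M13 after loess, 67.2% under median centring (7399 higher, 3613 lower), 65.1% without normalization (7008 higher, 3749 lower) and 56.6% with the processed signals (6317 higher, 4840 lower). Without normalization and with the processed signals the median of all genes rose by 0.55 and 0.32.

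**Figure D3:**
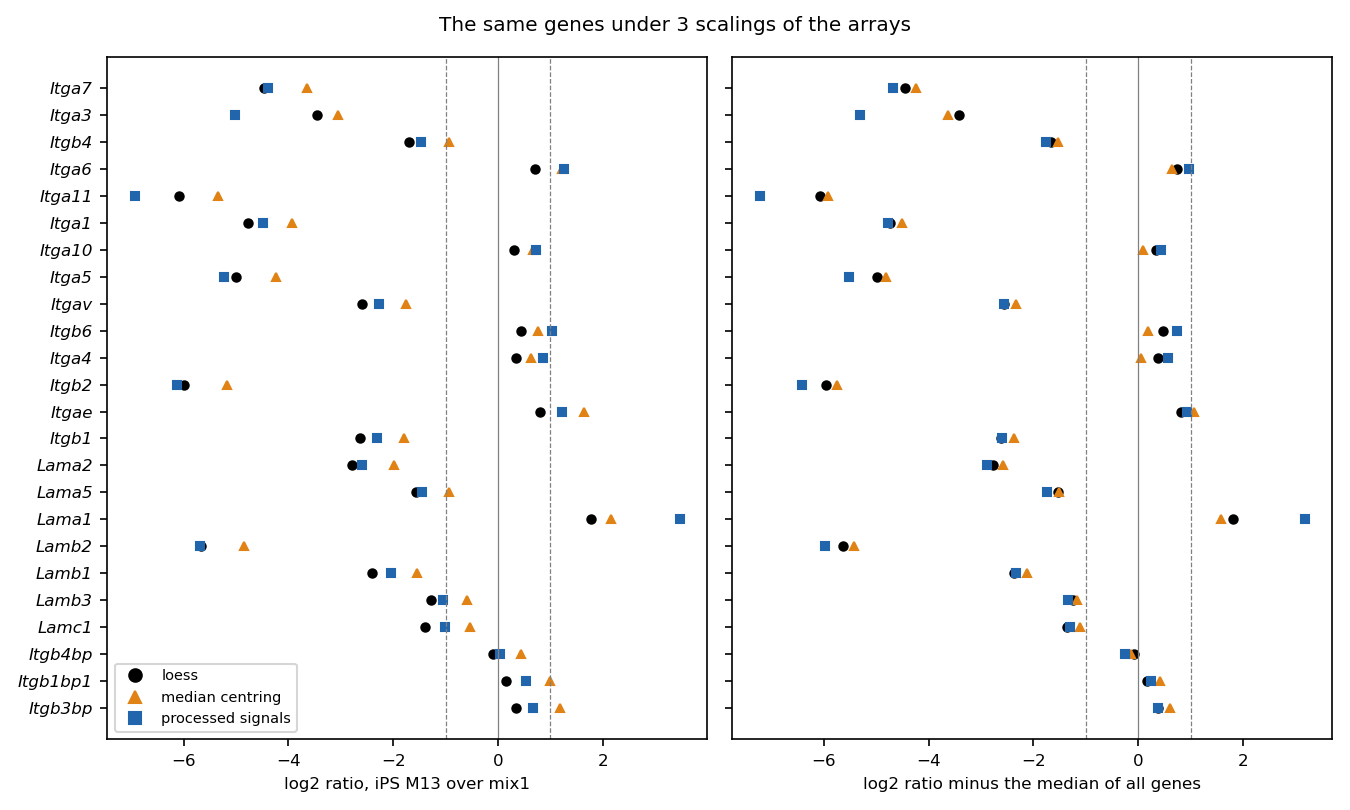
Log2 ratio of the measured genes described here under loess, median centring and the processed signals; the left panel shows the ratio as computed and the right panel the ratio minus the median of all genes in that setting, with dashed lines at 2-fold. On the right, the plotted integrin and laminin genes called lower stay below -1 in all 3 settings, Itga6 lies between 0 and 1, Itgae passes 1 under median centring alone, and Lama1 lies above 1.

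After loess the binding proteins differed little. Itgb1bp1 (0.15 ± 0.03), Itgb3bp (0.34 ± 0.001) and Itgb4bp (-0.10 ± 0.01) were above background in both RNAs on all arrays and were not called. Itgb4bp, now named Eif6, is a ribosome assembly factor. The sign of Itgb4bp turned under other scalings, for example to 0.45 under median centring. Itgb3bp was called higher under median centring (1.18) and without normalization (1.12). Itgb1bp1 stood at 0.997 under median centring, just short of 2-fold. Itgb1bp2, a muscle protein, was above background on 2 arrays in iPS M13 and 0 in mix1.

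Some probes under other names carry a description that names an integrin or laminin chain. These 17 probes for 8 chains were picked by their descriptions after the files had been seen. For some of them the RefSeq name update also gave Itgb5, Lama4 or Itga8. The identity of the others was not tested. The probe of LOC501308, described as similar to integrin alpha-6, had signals of 5813, 5966 and 6265 in iPS M13 and 302, 327 and 303 in mix1. Its ratios were 3.46, 3.29 and 3.50 (3.42 ± 0.11, adjusted p = 4.61e-06 by limma), well clear of 2-fold in every setting tried, from 3.35 to 4.31. The longest run it shares with the Itga6 probes is 7 bases, and they lie on different sequences of rn3, so whether it reads Itga6 was not tested. The 2 probes named Itga6 and this one thus gave 0.71, -0.42 (not kept) and 3.42.

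Other such probes were mostly lower in iPS M13. A second Itgb1 probe, on an expressed sequence tag named AW140408, gave -3.23 ± 0.02. The 3 probes described as laminin alpha4, the chain of vessel and mesenchymal basement membranes, gave -5.03 ± 0.04, -3.85 ± 0.08 (iPS M13 above background on 2 arrays) and, with iPS M13 above it on 0 arrays, at least 3.88-fold lower. Of the 2 described as alpha9, 1 gave -2.21 ± 0.08 (iPS M13 above background on 2 arrays) and the other, with 0 arrays, was at least 2.47-fold lower. For the 2 described as alpha8, iPS M13 was not above background on any array, and the brighter was at least 4.40-fold lower. The probes described as beta5 and above background in both RNAs on all arrays disagreed in size, at -5.66 ± 0.16, -1.505 ± 0.04 and -0.66 ± 0.04. Under median centring these stood at -4.83, -0.76 and 0.19. Another beta5 probe, with iPS M13 above background on 0 arrays, was at least 5.06-fold lower. Those described as laminin alpha3 disagreed in sign, at 0.31 ± 0.03 and -1.52 ± 0.13 (iPS M13 above background on 1 array for the latter), with another probe not kept. The probe described as alpha2b was not above background in either RNA.

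**Figure D4:**
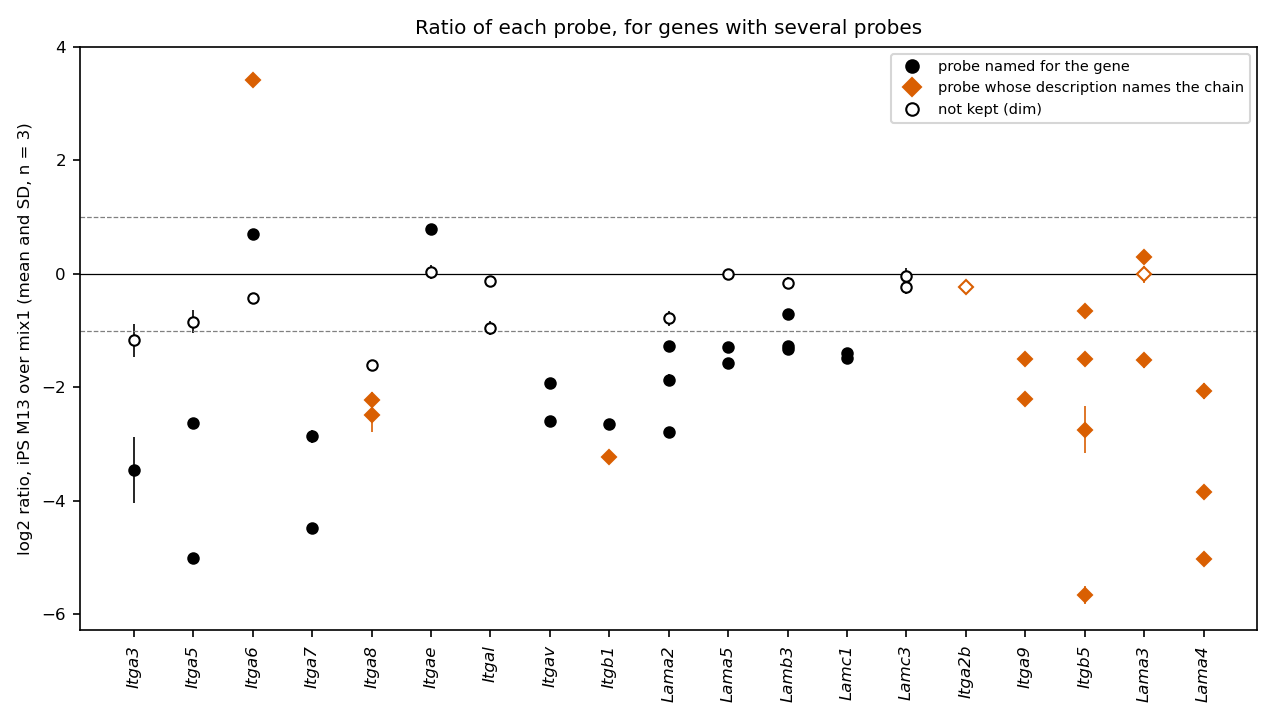
Log2 ratio of each probe (mean and SD of 3 arrays) for described genes with several probes or with a probe known by its description; circles are probes named for the gene, diamonds probes whose description names the chain, and open symbols probes too dim to be kept. Ratios of probes dim in 1 RNA, such as the second kept ones of Itga5 and Itga7, are plotted as computed and stand for bounds; the kept probes of Itga5, Itga7 and Lama2 all lie below 0, and the 3 Itga6 points are spread from -0.42 to 3.42.

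Genes around these receptors were counted from lists. The shares over all genes tested, 25.5% lower and 18.7% higher, stand beside these counts and those of the marker lists below. As with the chains, a gene bright in only 1 RNA enters through that RNA. The lists also overlap: Col1a1, Col1a2, Postn, Cdh1, Sparc and Col4a1 are each on more than 1. Of 13 measured basement membrane genes other than laminins, 11 were lower and 1 higher, with a median of -2.79. Sparc, a collagen-binding matricellular protein, was at -7.59 ± 0.10 and Smoc2 at -6.95 ± 0.01. Nid1, the nidogen that links laminin to collagen IV, was at -3.98 ± 0.01. The higher gene was the collagen IV chain Col4a4 (1.87 ± 0.19, mix1 above background on 1 array) and the uncalled one Col18a1 (-0.59 ± 0.04), whose sign turned under median centring (0.27). Of 19 measured integrin ligands other than laminins, 17 were lower and 1 higher, with a median of -5.87, among them Col1a2 (-8.82 ± 0.17), Ccn2 (-8.48 ± 0.06) and fibronectin, Fn1 (-6.45 ± 0.09). The higher one was Cdh1, E-cadherin, the ligand of alphaE. Fgg was not called, and its ratio as computed was 0.83 ± 0.10 with mix1 above background on 0 arrays. With the processed signals Fgg was called higher, at 2.23.

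On the inner side of the membrane, 20 of 29 measured adaptor and signalling genes were lower, 2 higher and 7 not called, with a median of -2.43. Tgfb1i1 (-4.20 ± 0.06) and Actn1 (-3.93 ± 0.03), a crosslinker of actin, were the lowest of those measured in both RNAs on all arrays. Some related genes shared a direction, such as Actn1 and Actn4 (-2.72 ± 0.01), and others did not. Tln1, the talin that switches integrins on, was at -3.43 ± 0.03 and its relative Tln2 at 0.05 ± 0.03. The kindlin genes Fermt2 and Fermt3 were at -1.82 ± 0.02 and -5.41 ± 0.08 (iPS M13 above background on 2 arrays for the latter). The epithelial kindlin gene Fermt1 was at 2.58 ± 0.14, with mix1 above background on 1 array. Under median centring Fermt2 fell short of 2-fold (-0.97). The kinase Ptk2b was at -3.72 ± 0.05 (iPS M13 above background on 2 arrays), and Ptk2, the focal adhesion kinase, was not called at 0.03 ± 0.0033. The other higher gene was Filip1 (6.16 ± 0.26, mix1 above background on 2 arrays). Nid1, Col4a4, Col18a1, Fn1, Fgg, Actn4, Tln1, Tln2, the kindlin genes, the kinase genes and Filip1 were picked for mention after their values had been seen.

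Of 13 measured genes listed as laminin receptors of other families and tetraspanin partners, 11 were lower and 0 higher, with a median of -3.37. Under median centring 9 were lower. The list also held Plec (-3.37 ± 0.02) and Dst (-1.02 ± 0.03), which are neither receptors nor tetraspanins. Both were counted lower and were named after their values had been seen. Cd63 (-7.58 ± 0.10) and Sdc4 (-6.95 ± 0.08) were the lowest. Dag1, dystroglycan, was at -3.43 ± 0.05 and Cd151, the tetraspanin partner of the laminin-binding integrins, at -2.85 ± 0.01. Sdc1 (-0.08 ± 0.03) and Rpsa (-0.51 ± 0.03) were not called. The last 4 were also picked after their values had been seen.

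Markers of cell types that either RNA could hold were counted from lists as well. All 18 measured fibroblast markers were lower in iPS M13, with a median of -7.15, led by Col3a1 (-10.79 ± 0.16) and Dcn (-10.37 ± 0.10). Their summed normalized signal was 41171 to 44509 in iPS M13 and 2929600 to 3205970 in mix1, and Postn, Thy1 and Fap were not above background in iPS M13. All 18 measured macrophage and myeloid markers were lower, with a median of -4.95, led by Cd14 (-7.49 ± 0.05) and Lyz2 (-7.43 ± 0.06). Their sums were 5463 to 5960 and 368846 to 380645, and 8 of 18, Spi1 and Ptprc among them, were not above background in iPS M13. Their part in the integrin and laminin differences was not tested. The feeders were mouse fibroblasts, and how far mouse RNA hybridised to these rat probes was not tested.

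Epithelial markers went the other way, with 9 of 11 measured genes higher and 0 lower, a median of 1.74, and Krt18 at 3.42 ± 0.04. Krt8 (-0.55 ± 0.06) and Cldn3 (-0.85 ± 0.03) lay below 0 and were not called. Of the higher genes, Krt19 and Cldn4 were above background on 0 arrays in mix1, and Ocln and Spint1 on 1. All of these but Krt18 were named after their values had been seen. The sums of the epithelial markers were 37120 to 38164 in iPS M13 and 6854 to 7129 in mix1. Cldn6, Cldn7 and Grhl2 were not above background in either RNA. Of 16 pluripotent cell markers listed, 8 had a probe and 5 were measured. Of these 4 were higher and 0 lower, with Dnmt3b at 4.10 ± 0.08 and Tdh at 3.13 ± 0.01. Lin28a, named after its value had been seen, was not called at -0.16 ± 0.04. It was above background in both RNAs on all arrays. The sums of the pluripotent cell markers were 37529 to 39231 in iPS M13 and 4416 to 4667 in mix1. Dnmt3l and Esrrb were not above background in either RNA. Smooth muscle markers had 7 of 8 lower (Tagln -6.15 ± 0.05), with sums of 24479 to 25998 in iPS M13 and 169642 to 183824 in mix1.

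Extraembryonic endoderm markers were read beside Lama1, which that tissue is known to make. Of 7 measured, 6 were lower, with Sparc and Dab2 (-6.51 ± 0.02) the lowest. Sparc and Col4a1 are also on the basement membrane list, and Gata6 was measured through mix1 alone. These ratios depend on what the cells of mix1 express, and whether iPS M13 held endoderm cells was not tested. The 1 higher gene was Afp, a yolk sac endoderm protein, at 3.82 ± 0.18 with mix1 above background on 2 arrays, named after its value was seen. The sums of these markers were 11522 to 12290 in iPS M13 and 415380 to 475051 in mix1. The defining genes Gata4, Sox17, Sox7 and Foxa2 were not above background in either RNA on any array. Gata6 was above it on 0 arrays in iPS M13 and on 3 in mix1. Platelet markers had 2 of 3 lower, Pf4 (-7.50 ± 0.06) and Gp1bb (-4.35 ± 0.05), with sums of 1554 to 1568 and 42286 to 44693. Lymphocyte markers had 0 of 3 called, with 14 of 16 not above background in iPS M13 and 13 of 16 in mix1, at sums of 1966 to 2094 and 2121 to 2367. Endothelial markers had 1 of 4 higher and 1 lower, and Pecam1 and Cdh5 were not above background in either RNA, at sums of 1915 to 2097 in iPS M13 and 3586 to 3633 in mix1.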

How the data were processed

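Spot intensities of 3 two-colour arrays were deposited as written by Agilent Feature Extraction (named in the submitters' processing notes), version 9.5.3.1 per the file headers, with probe positions on rn3. The same files hold processed intensities, which per the file headers had background and dye corrections from the software. Their log10 ratios are Cy5 over Cy3, per the file headers. The authors' deposited value table holds log2 ratios of unstated direction; against the log10 ratios its columns had slopes of -3.32, so it was read as log2 of Cy3 over Cy5. The medians of its columns are -0.0413, -0.0282 and -0.0286; any centring by the authors is unknown.

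Mean signals and median backgrounds were corrected by normexp (offset 50) and normalized by loess within arrays in limma 3.58.1 (R 4.3.3), with control and outlier-flagged spots at weight 0 and flagged spots (205, 263 and 192 on replicates 1, 2 and 3) left out. Spots of a probe were averaged. Of 41012 probes 24149 were kept, for which 1 channel, the same on 3 of 3 arrays, was well above background; each gene took the value of its brightest. Names were updated through RefSeq by accession (10735 probes), symbol (5577) or synonym (3730), and 20970 kept the array's name. The mean ratio was tested against 0 with lmFit and eBayes (prior degrees of freedom 1.55) and adjusted over 20339 genes. The smallest p of a two-sided exact sign-flip test over 3 arrays is 0.25, so none was run. Where an RNA was not above background on any array, the bright mean was divided by the dim one, floored per array at the dimmest signal still well above background, on values scaled by loess and then Aquantile. On simulated data for this comparison (20339 genes) 96% of genes changed by a log2 of 1.5 and 100% of those changed by 3 were recovered. The simulated ratios had normal noise with each gene's SD between arrays. They held no dye effect, scaling shift or spread of mix1, so the recovery does not speak to those.

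Every gene of the name rule is reported whatever its result, save 1 that enters the counts but is not reported here by name, with, of each list, up to 2 called genes per direction measured in both RNAs on all arrays, and 5 label checks. Genes outside this rule are said to be so. The genes, classes and lists were chosen with earlier results of these data known. The alternatives were 12 settings, and a further one, taking the median of all genes off each setting, was chosen after seeing the data. Python 3.11.15 with pandas 2.3.3 and matplotlib 3.10.9 made the tables and figures.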

Additional observations from a re-analysis of the deposited data

How the results depend on the processing

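No paired analysis was possible because the 3 samples form 1 group, hybridised against 1 control RNA. Counts were within 1.5 times of those reported in 606 comparisons with an alternative and outside that in 46; leaving out any of the 3 replicates kept all counts within it. For single genes, 925 comparisons kept direction and side of the threshold, 14 gained a call, 15 lost one and 13 turned sign; the cause was not tested. Median centring, no within-array normalization, the processed signals and the authors' value table called 7399, 7008, 6317 and 6315 genes higher. In that order they called 2, 2, 3 and 3 integrin chains higher, with 1 laminin-binding and 1 leukocyte gene in each, and 1 RGD-binding gene in the last 2. The first 2 called 3 laminin chains lower, 1 alpha and 0 gamma. The last 2 called 2 other integrin ligands higher and 1 epithelial and 1 lymphocyte marker lower. Fgg, at 2.23 in both, was among those ligands. Itga6 was at 1.22, 1.17, 1.26 and 1.26, and Itgae at 1.65, 1.59, 1.21 and 1.21.

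Without the filter on dim probes 2 leukocyte integrins were lower, and with the GC trend (-0.44 per 10% GC) removed 2 endothelial markers. Requiring both channels above background left 0 laminin and 0 laminin alpha genes higher, 1 collagen-binding gene, 0 endothelial, 3 smooth muscle and 10 macrophage markers lower, and 4 epithelial, 0 endothelial and 0 extraembryonic endoderm markers, 0 basement membrane and 0 adaptor genes higher. Taking off the median of all genes, chosen after seeing the data, left 1 integrin chain higher under median centring and without normalization, and 0 laminins higher with both channels above background; it kept the other chain counts within 1.5 times.

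Signs turned for genes near 0. Itgb4bp was at 0.45, 0.39, 0.032 and 0.032 in the 4 scalings above and 0.35 with the GC trend removed, where Itgb1bp1 was at -0.59 and Ptk2 at -0.041. Sdc1 was at 0.40, 0.35, 0.15 and 0.15 in those scalings, and Col18a1 at 0.27 and 0.21 in the first 2. Dim signals limit Itga3, Itga11, Itga4 and Itgb6, for which 1 RNA was not well above background on some arrays. They also limit Lama1, for which mix1 was not well above it on any array.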
